A study of Zea mays with 322 samples.

Results

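MIR399e (Cluster_59647) and MIR399b (Cluster_161142) are the 2 loci of the miR399 family among the 64 MIRNA loci in the deposited tables, and they were chosen by name, not by their values. Small RNAs were sequenced from 45-day leaf tissue of greenhouse-grown maize, in 322 libraries of 81 groups. B–A translocations fuse the end of an A chromosome arm with a B centromere, which often does not disjoin in pollen, and progeny with different numbers of copies of that segment can be recovered. Monosomies (1D), trisomies (3D) and tetrasomies (4D) of such distal segments were set against diploids (2D), and disomies (h2D), haploid plants with an additional copy of a segment, were set against haploids (h1D). Dp4 is an interstitial duplication across the centromere of chromosome 4, studied in 3 and 4 copies against diploids. The ploidy series held haploids (1X), triploids (3X) and tetraploids (4X), each with its own diploids, and W22 plants with 1 B chromosome (1B) were compared with plants with no B chromosome (0B). By the study's methods the triploids came from inbred line Mo17 and the tetraploids from W22, and some aneuploid plants carry part or more of a B chromosome that their controls lack. Most groups held 4 plants, several lines shared a control group, and the tables hold MIRNA loci only, so the labelled leaf tissue could not be checked against marker genes.

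miR399 is known from Arabidopsis as a signal of phosphate starvation. It accumulates when phosphate is short, moves from shoot to root and lowers the transcript of PHO2, an E2 conjugase that limits phosphate uptake and loading into the xylem. Target RNAs carry several miR399 sites in a row, and the seed of the miRNA, near its 5′ end, pairs with each of them.

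To compare the 2 loci, which lie on different chromosomes, their mature sequences are shown. They are given 5′ to 3′ with the seed, bases 2 to 8, in capitals, as listed in the study's table of loci.

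MIR399e, W22v2 chr2:16783346-16783553: uGCCAAAGgagaguugcccug

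MIR399b, W22v2 chr4:163101893-163102103: uGCCAAAGgagagcuguccug

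The sequences have 19 of 21 positions in common, including the whole seed. Counted from the 5′ end, with the base of MIR399e first, they differ by U14C and C17U. Each mature sequence belonged to 1 of the 64 loci, and the seed to these 2 loci. MIR399e lies in the segment varied in TB-2Sa, so it is a cis locus in the 2S disomy and a trans locus in every other line, including 2S_deletion, whose segment does not hold it. MIR399b lies in the region duplicated in Dp4. RefSeq lists 10 MIR399 genes in the B73 assembly Zm-B73-REFERENCE-NAM-5.0, on chromosomes 2, 3, 4, 5, 6 and 9, and both members were matched to it by symbol.

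The predicted target of MIR399e in the part of the study's target table read here was the gene Zm00001d038972 (AGPv4 chr6:168012632-168021297), in 9 transcripts. The 5 distinct sites are shown because all of them hold the complement of the seed, given in capitals.

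Site with 19 pairs and 1 G:U pair: uagggcaaaucucCUUUGGCa

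Site with 19 pairs and 2 mismatches: cugggcaaaucucCUUUGGCa

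Site with 18 pairs and 2 G:U pairs: cuggguaauucucCUUUGGCa

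Site with 18 pairs and mismatches at positions 13 and 21: gggggcaaaucucCUUUGGCa

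Site with 18 pairs and mismatches at positions 13 and 20: ucgggcaaaucucCUUUGGCa

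The site with 19 pairs and 1 G:U pair also has a mismatch at position 13. The site with 2 G:U pairs has a mismatch at position 20. Both sites with 18 pairs and 2 mismatches also hold 1 G:U pair. In 1 transcript all sites lay within 418 bases of each other. The site with 19 pairs and 2 mismatches occurred there more than once, from base 828 and from base 910. The sequence of MIR399b formed 17 or 16 pairs with the same sites, 2 fewer at each. Pairing is a property of the letters, and neither cleavage nor the level of the target was measured here.

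The libraries held 7139 to 246556 counts on the 64 loci (median 79912.5), of which MIR166f and MIR166g made up a median of 95.6%. The read counts had been divided by mapped reads to give RPM, the reads of a locus per 1e+06 mapped reads, and 1 read was worth 0.257 to 2.95 RPM. MIR399e was therefore measured with few reads, a median of 19 per library and a maximum of 295, with 4 libraries at 0. Plants of a group whose counts differed by no more than sampling noise were joined as 1 sample, which left 312 samples. Nothing in the labels says how else the plants were related, so p-values measure the spread between these samples.

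MIR399e was a locus of moderate level in leaves. Its mean over all libraries was 16.6 RPM, rank 16 of the 64 loci, and its median 12.01 RPM. Over the groups, mean levels ran from 0.304 RPM in the 4L disomy to 79.7 RPM in the triploids, with a median of 14.7 RPM. The mean lay below 5 RPM in 8 groups, at 5 to 10 RPM in 22, at 10 to 20 RPM in 25, at 20 to 30 RPM in 16 and above 30 RPM in 10. When the groups were placed in order of their means, none of the 80 neighbouring pairs had ranges that did not overlap, and 79 of the gaps were smaller than the larger SD of the pair. The order of neighbours is thus not resolved by these samples, and only distant groups in it can be told apart.

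**Figure D1:**
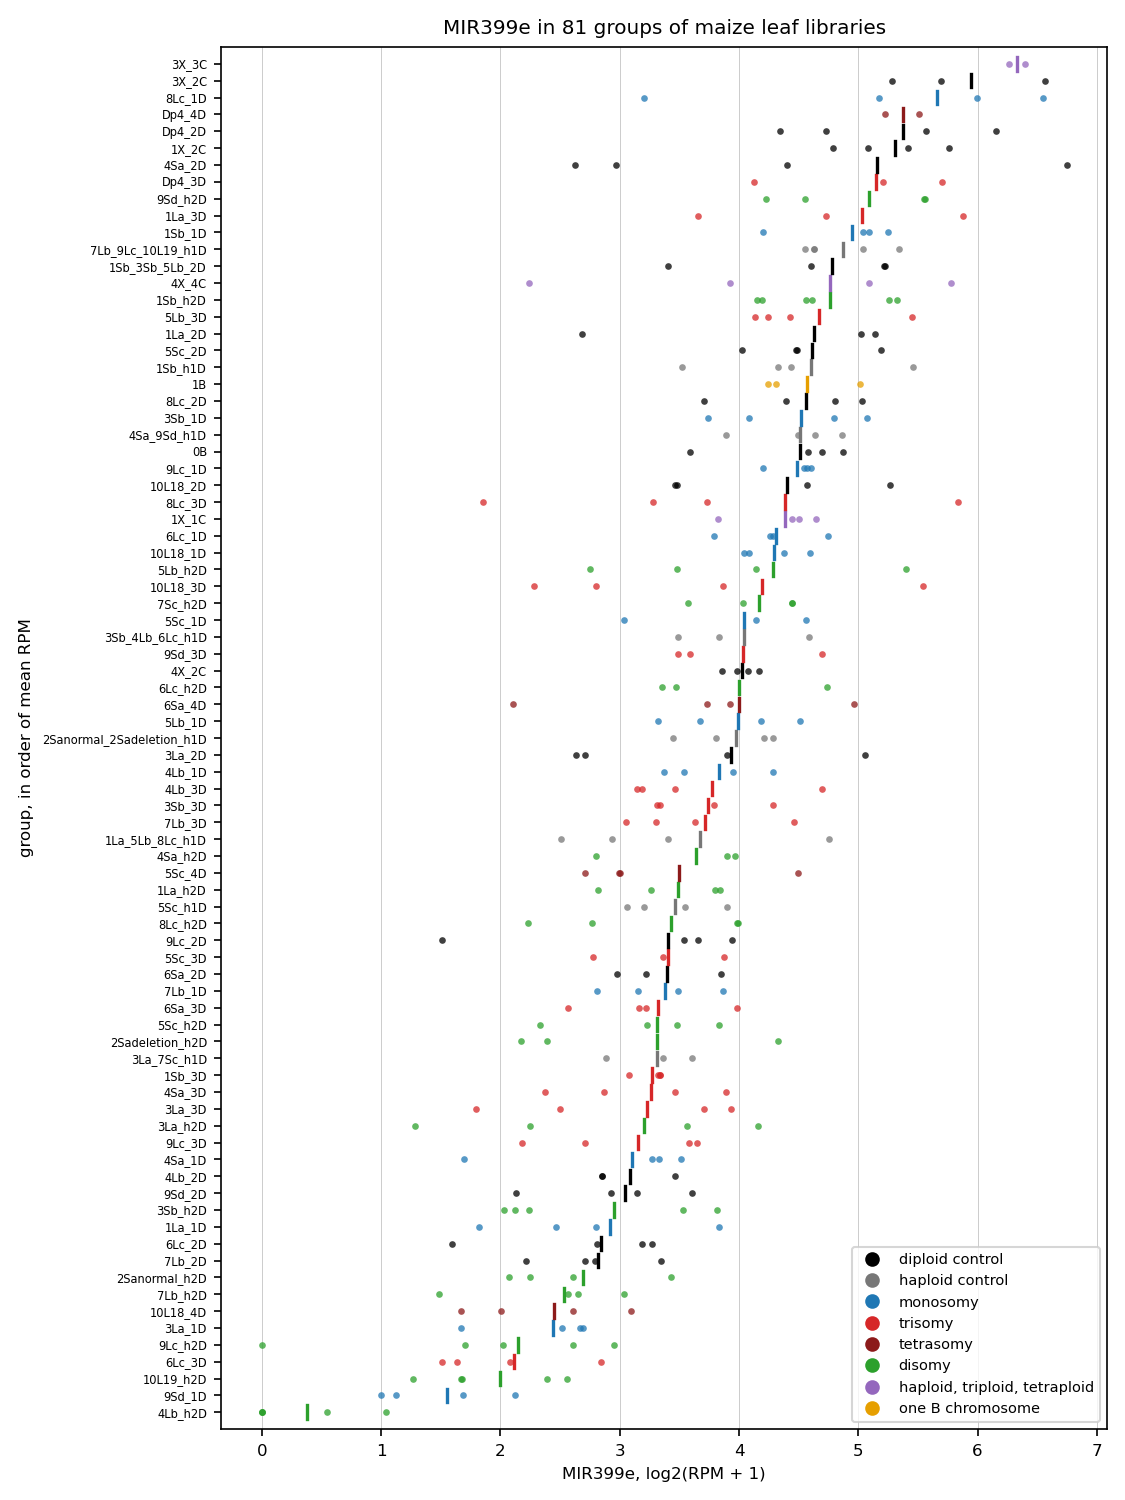
Level of MIR399e in every sample as log2(RPM + 1) (horizontal axis), with the 81 groups on the vertical axis in order of their mean RPM; points are samples, bars the log2(mean RPM + 1) of a group, and colours the kind of group. Controls in black and grey are spread over most of the order, from 6.07 RPM in the 7L diploids to 60.7 RPM in the diploids of the triploid series. The 4L disomy has the lowest mean, 0.304 RPM, and its highest plant (1.06 RPM) overlaps with the lowest plant of the 9S monosomy (0.995 RPM).

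Diploid control groups alone covered 6.07 to 60.7 RPM (18 groups, median of the group means 20.9 RPM), and haploid control groups 8.94 to 28.2 RPM (8 groups, median 15.1 RPM). Monosomies had group means of 1.94 to 49.6 RPM, trisomies 3.34 to 34.5 RPM, tetrasomies 4.45 to 40.4 RPM and disomies 0.304 to 33.04 RPM. Every kind of aneuploid group thus reached below the lowest control mean of its background, and none reached above the highest diploid mean, except that the highest disomy, 9S, lay above the highest haploid control. These are levels across different lines and experiments and were not tested against each other.

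The spread of MIR399e among plants of one group was the largest of the 48 loci with a mean of at least 0.5 RPM over the groups. Its within-group SD was 0.79 on the log2(RPM + 1) scale, beside a median of 0.55 over the loci. Read sampling sets a lower limit to such a spread, and the chi-square of the counts per degree of freedom, which is near 1 for sampling alone, was 10.5 for MIR399e and had a median of 2.30 over the loci (rank 9). This ratio rises with read number, so its rank is not one of spread. MIR166f had a ratio of 1347 with the smallest within-group SD, 0.27, and all loci ranked above MIR399e had a higher mean RPM. The SD between group means was 1.01 (rank 3, median 0.53), and that between the means of control groups alone was 0.81 (rank 6, median 0.45). Of the variance of MIR399e, 68.7% lay between groups, close to the median of 66.9% over the loci. Spearman's rho of its level with mapped reads was -0.04 over the 81 group means and 0.16 within groups over 312 samples. Both describe samples that share groups and experiments.

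**Figure D2:**
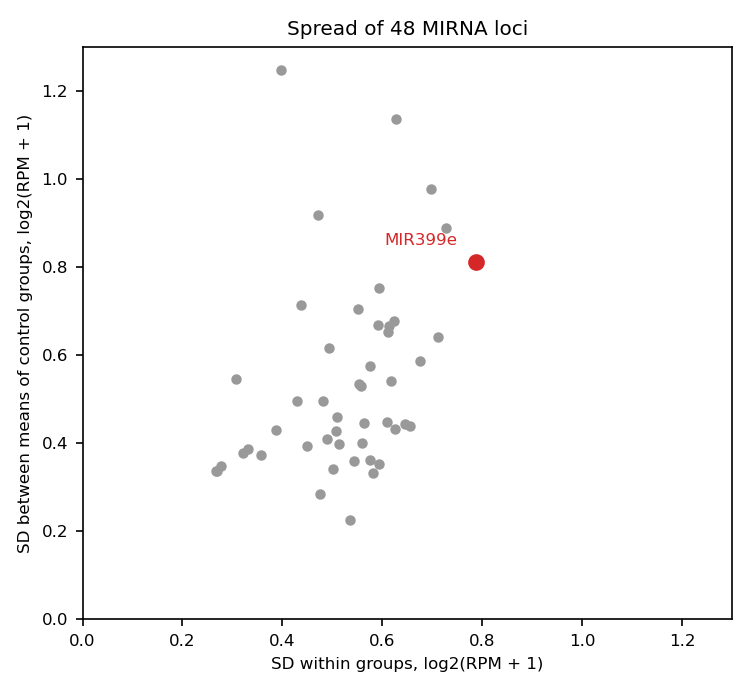
Spread of the 48 MIRNA loci with a mean of at least 0.5 RPM, each a point, as the SD within groups (horizontal axis) and the SD between the means of control groups (vertical axis), both of log2(RPM + 1). MIR399e, in red, lies furthest to the right at 0.79, and its value between control groups is 0.81.

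Experiments are numbered as in the study's list of samples. Pools are haploid-background plants under one other label of that list, which does not state what they share. Pairs of control groups from one experiment or pool, which differ in no varied segment, were compared first. They show how far MIR399e moves without a change of dosage. It was called (edgeR quasi-likelihood test, Benjamini-Hochberg adjusted p under 0.05 over the loci of a comparison) in 7 of 22 pairs, 31.8%, while 7.23% of all tests of loci in these pairs were called. The median size of its log2 fold change was 1.15, beside 0.42 for all loci. The pairs are not independent, since many groups enter several of them, most of all the 5 diploid groups of Experiment 5. The diploid controls of Experiment 5 were the most unequal, with means of 6.07 RPM in the 7L diploids and 34.6 RPM in the 4S diploids. The 4S diploids had single values of 20.1, 5.18, 6.83 and 106.4 RPM, so that 1 plant, replicate 4, held most of the mean, and this pair was not called (adjusted p = 0.0993). The 7L diploids and the 8L diploids (22.7 ± 8.52 RPM, n = 4), in contrast, did not overlap and differed by a log2 fold change of -1.98 (SE 0.27). In Experiment 4 the shared diploids of 1S, 3S and 5L (26.4 ± 12.8 RPM, n = 4) lay above those of 6L (6.20 ± 3.01 RPM, n = 4), with a log2 fold change of 2.32. That pair differed at many loci, with 61.4% of them called and a median log2 fold change of all loci of 0.63. In the pair of 7L and 8L diploids 6.67% of the loci were called. What differs between these control groups besides the line they belong to is not given in the sources used here.

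Against their own controls, MIR399e was called in 14 of 51 comparisons of aneuploid groups with euploid plants, 2 times higher and 12 times lower. That is 27.5%, beside 11.5% of all tests of loci in those comparisons and beside the 31.8% of control pairs given above. Among 56 loci, MIR399e was at rank 3 by the number of these calls, and at rank 2 among 54 loci in the pairs of controls. The median size of its log2 fold change was 0.73 in the aneuploid comparisons, beside 0.45 for all loci and 1.15 for MIR399e between controls. By edgeR the share of calls in aneuploid groups was thus no higher than that between controls. Fewer control pairs were called with DESeq2 and more without a limit on mean RPM, as given below. The shares were not compared under those settings. Pairs of controls also cross lines, while each aneuploid group was set against its own control. Both sets use some groups more than once, and the difference between these shares was not tested.

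**Figure D3:**
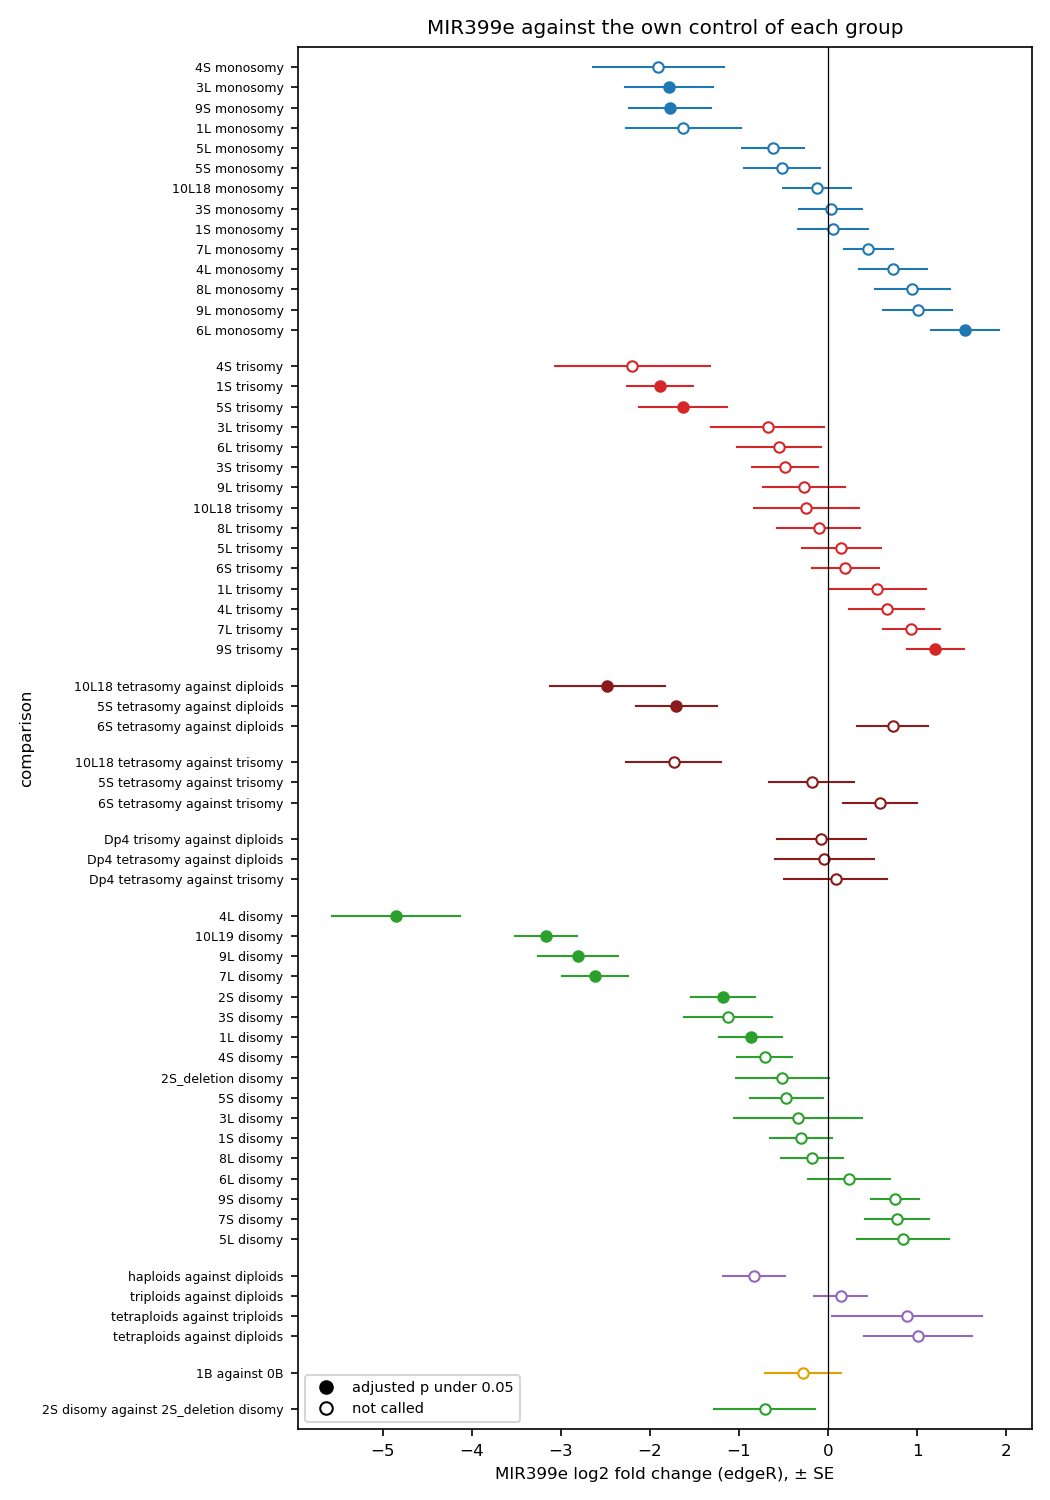
log2 fold change of MIR399e (edgeR) with its SE (horizontal axis) in each comparison (vertical axis), with filled points where the adjusted p was under 0.05; colours mark monosomies, trisomies, tetrasomies (with Dp4), disomies, ploidy, the B chromosome and the direct comparison of both 2S lines. Filled points lie on both sides of 0 in monosomies and trisomies, while the 6 filled points of the disomies all lie below 0, from -0.87 in 1L to -4.85 in 4L.

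In monosomies MIR399e fell in 2 of 14 lines, 3L and 9S, and rose in 1, 6L. Over all loci 14.1% of the tests in monosomies were called, 7.8% lower and 6.34% higher. The median log2 fold change of MIR399e over the lines was -0.05, with a range from -1.91 to 1.54, so that lines with 1 copy of a segment did not share a direction.

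The 9S monosomic plants had 2.23, 0.995, 1.18 and 3.36 RPM, and their diploids 7.86, 3.37, 11.1 and 6.61 RPM. The highest monosomic plant lay just under the lowest diploid, and the log2 fold change was -1.78 (SE 0.46, adjusted p = 0.0037; 15.6% of the loci were called in this comparison). The call was kept against each of the 4 other diploid groups of Experiment 5.

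The 6L monosomic plants had 12.8, 18.2, 25.8 and 18.5 RPM, and their diploids 8.65, 2.02, 6.02 and 8.11 RPM. All monosomic plants were above all diploids, with a log2 fold change of 1.54 (SE 0.38, adjusted p = 0.0022; 35.7% of the loci were called). The 6L diploids were the lowest control of Experiment 4, and against the other control of that experiment the log2 fold change was -0.50 and not called.

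The 3L monosomic plants had 2.19, 5.34, 5.48 and 4.72 RPM, and their diploids 13.9, 32.4, 5.56 and 5.21 RPM. The groups overlapped, since 2 of the diploids were as low as the monosomic plants, and the log2 fold change was -1.79 (SE 0.50, adjusted p = 0.0359; 6.67% of the loci were called). The call was lost without any 1 of the 4 monosomic plants (log2 fold changes -1.58, -1.88, -1.90 and -1.80, adjusted p up to 0.0993), without diploid replicate 1 (-1.75, adjusted p = 0.0511), and with mapped reads as library size (-1.61, adjusted p = 0.118). Without diploid replicate 2 it held, at -1.10. Against the 10L18 diploids of the same experiment it was -2.46 and called, and against the 4L diploids -0.945 and not called.

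In the 9L line no monosomic plant (22.8, 22.3, 17.4 and 23.3 RPM) overlapped with a diploid (11.6, 1.85, 10.6 and 14.4 RPM), yet the difference missed the threshold (log2 fold change 1.01, SE 0.39, adjusted p = 0.0606). It passed when diploid replicate 1 (1.15) or monosomic replicate 3 (1.12) was left out. Of the other lines, 1L was called without monosomic replicate 2 (-2.20), 4S without diploid replicate 3 (-2.25), 5L without replicate 3 of its diploids (-0.87) and 8L without monosomic replicate 1 (1.19). The 6L effect differed from the 3L effect by 3.11 on the log2 scale (SE 0.66, adjusted p = 0.0014) and from the 9S effect by 3.21 (SE 0.56, adjusted p = 5.9e-07). These tests were chosen after the values had been seen, only for lines already called in opposite directions. They therefore give no support beyond the calls themselves.

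In trisomies MIR399e also went both ways, falling in 1S and 5S and rising in 9S among 15 lines. The background was 5.12% of tests in either direction, 2.79% lower and 2.33% higher, and the median log2 fold change of MIR399e was -0.24. With 1 sample left out, 7L (1.07 without trisomic replicate 2) and 8L (-1.41 without trisomic replicate 2) were called too.

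The 1S trisomic plants had 9.02, 9.14, 9.11 and 7.45 RPM and the diploids shared by 1S, 3S and 5L had 36.5, 36.2, 9.59 and 23.3 RPM. The groups did not overlap, but diploid replicate 3 lay close to the trisomic plants. The log2 fold change was -1.89 (SE 0.37, adjusted p = 9.1e-04; 9.3% of the loci were called), and against the 6L diploids, the lower control of Experiment 4, it was 0.04 and not called.

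The 5S trisomic samples had 13.7 (a joined pair of plants), 9.29 and 5.84 RPM, and the diploids 21.3, 21.4, 35.6 and 15.3 RPM. The groups did not overlap, and the log2 fold change was -1.63 (SE 0.49, adjusted p = 0.0471), which made MIR399e the only locus called of those tested (2.33%). The call was lost without diploid replicate 2, 3 or 4 (-1.12, -0.94 and -1.37) and without any trisomic sample (-2.09, -1.21 and -0.82), and only leaving out diploid replicate 1 kept it. It was also lost with mapped reads as library size (-1.23, adjusted p = 0.635). Of the other diploids of the experiment, it was called against those of the haploid series (-2.05) and not against those of the tetraploid series (-0.45).

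The 9S trisomic samples had 11.1, 10.3 (a joined pair) and 24.9 RPM, beside the diploids at 7.86, 3.37, 11.1 and 6.61 RPM. The ranges overlapped in the lowest trisomic and the highest diploid samples, and the log2 fold change was 1.21 (SE 0.32, adjusted p = 0.0224), the only call of that comparison (2.13%). It was lost without the joined pair (1.45, adjusted p = 0.308), without trisomic replicate 4 (0.74, adjusted p = 0.165) and without diploid replicate 2 (0.91, adjusted p = 0.246). Against the 7L diploids of the same experiment it was 1.66 and called, against the 9L diploids 0.81 and not called, and against those of 4S and 8L it was negative (-0.67 and -0.42) and not called. The 9S effect differed from that of 1S by 3.13 (SE 0.53, adjusted p = 3.2e-07), and from that of 5S by 2.23 (SE 0.63, adjusted p = 0.0588), which missed the threshold. These pairs of lines were likewise tested because their calls had opposite directions.

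Because the calls depend on the control, trisomies were also set directly against the monosomies of the same line, a comparison added after the values had been seen. MIR399e was called in 5 of 14 lines, where 18.2% of all tests of loci were called. It was higher in the trisomy in 9S (log2 fold change 3.15, SE 0.40, adjusted p = 6.7e-07) and in 3L (1.13, SE 0.33, adjusted p = 0.0043). It was lower in the trisomy in 1S (-2.38, SE 0.35, adjusted p = 7.8e-06), in 6L (-2.08, SE 0.38, adjusted p = 3.8e-06) and in 9L (-1.18, SE 0.35, adjusted p = 0.0070). Over 1, 2 and 3 copies of a segment, the means of MIR399e rose in order in 2 lines (1L and 9S), fell in 4 (1S, 6L, 8L and 9L), were highest at 2 copies in 6 and lowest at 2 copies in 2. These counts were not tested. The lines 1S, 3S and 5L share their diploids, and the 4S mean at 2 copies came mostly from 1 plant. In 9S the means were 1.94, 7.24 and 15.4 RPM, and in 6L they were 18.8, 6.20 and 3.34 RPM. Since MIR399e lies in none of these segments, both orders are of a trans locus.

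Tetrasomies were available for 5S, 6S and 10L18. MIR399e fell against diploids in 5S and 10L18, where 8.13% of all tests were called and 5.69% lower, and was not called in 6S (log2 fold change 0.73, SE 0.40). The 10L18 tetrasomic plants had 7.53, 5.09, 2.18 and 3.02 RPM, and the diploids 22.8, 37.6, 10.2 and 10.0 RPM. The groups did not overlap, and the log2 fold change was -2.48 (SE 0.65, adjusted p = 0.0444; 9.52% of the loci were called). The call was lost without diploid replicate 1 (-2.48, adjusted p = 0.112) or without tetrasomic replicate 2, 3 or 4 (-2.47, -2.24 and -2.41, adjusted p up to 0.124). Without diploid replicate 2 it held, at -1.64. It was not made against either of the other diploid groups of Experiment 3.

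The 5S tetrasomic plants had 5.55, 7.02, 6.96 and 21.6 RPM against the diploids at 21.3, 21.4, 35.6 and 15.3 RPM. Replicate 4 overlapped with the diploids and the other 3 plants did not. The log2 fold change was -1.70 (SE 0.46, adjusted p = 0.0024; 12.2% of the loci were called), and without diploid replicate 3 it was -1.26 and no longer called (adjusted p = 0.0722). It was called against the diploids of the haploid series (-2.19) and not against those of the tetraploid series (-0.54). Against the trisomies of their lines, none of the 3 tetrasomies was called by edgeR (0 calls, 1 at an unadjusted p under 0.05, 0 by DESeq2 and limma), where 2.4% of all tests were. The 10L18 tetrasomy came nearest, at a log2 fold change of -1.73 (SE 0.53, adjusted p = 0.0565), and was called without tetrasomic replicate 2 (-2.20) or without trisomic replicate 1 (-2.30) or 4 (-1.95).

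In Dp4 plants MIR399e was not called. Diploids had 70.2, 25.5, 19.3 and 46.5 RPM, trisomic plants 16.5, 35.9 and 51.2 RPM, and tetrasomic plants 44.5 and 36.3 RPM. The groups overlapped throughout. The log2 fold changes were -0.07 (SE 0.50) and -0.04 (SE 0.56) against diploids and 0.09 (SE 0.57) between the dosages, with 0 of 3 calls by edgeR, DESeq2 or limma and none at an unadjusted p under 0.05, beside 0.758% of tests called. The 95% intervals of the log2 fold changes, -1.14 to 0.99, -1.35 to 1.27 and -1.19 to 1.36, still hold changes of about 1 in both directions.

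In disomies all calls of MIR399e were in one direction, as in the tetrasomies. It fell in 6 of 17 lines, 1L, 2S, 4L, 7L, 9L and 10L19, and rose in none. Over all loci 16.4% of the tests in disomies were called, 7.08% lower and 9.36% higher. The log2 fold change was negative in 13 of 17 lines, and that number was 13 as well with mapped reads as library size, although 1S and 6L changed sign. The highest value among the others was 0.84 in 5L, and the 9S disomy (0.75, SE 0.27, adjusted p = 0.0554) was just outside the threshold. The 9S disomy was called without disomic replicate 2 (0.96) or 3 (0.88) or control replicate 3 (0.87), 5L without control replicate 4 (1.56), 7S without disomic replicate 4 (0.96) and 4S without disomic replicate 1 (-0.81). The 6 calls rest on 4 control groups, and those of 7L, 9L and 10L19 share 1.

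The 1S and 3L disomies came from 2 pools, while their controls all came from 1 of these. The 3L disomic plants of the control's pool had 1.44 and 3.76 RPM, those of the other pool 16.8 and 10.8 RPM, and the control 9.27, 11.2 and 6.38 RPM. Both plants of the control's pool lay below all controls, and of those of the other pool 1 lay above the controls and 1 within their range. Within the control's pool MIR399e was called lower in the 3L disomy (log2 fold change -1.98, SE 0.48, adjusted p = 0.0073, n = 2 and 3, edgeR), beside -0.33 with both pools together (adjusted p = 0.780), so that 7 lines in place of 6 were called. The 1S disomy was not called within the pool (-0.45, SE 0.31, adjusted p = 0.278) or with both pools (-0.31).

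The 4L disomy held almost no MIR399e. Its 5 plants had 0, 0.461, 0, 0 and 1.06 RPM, which is 0, 1, 0, 0 and 2 reads, against 13.2, 22.98 and 10.2 RPM in the 3 haploid plants shared by 3S, 4L and 6L. No other group had so low a mean. Pooled over plants, 3 reads in the disomy and 65 in the control give a ratio of 0.0217 per mapped read, 46.1-fold lower, with an exact 95% interval of 15.1 to 229 that covers counting error only. The fitted log2 fold change was -4.85 (SE 0.72, adjusted p = 3.7e-08; 18.8% of the loci were called). It remained called without any 1 sample (-5.70, without disomic replicate 5, to -4.59) and against the other haploid control of the same pool. With 1 and 3 copies of 4L in diploids, in contrast, MIR399e had log2 fold changes of 0.73 (SE 0.38) and 0.66 (SE 0.42), neither of which was called.

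The 7L, 9L and 10L19 disomies came from the same pool as 4L. They shared a haploid control with 23.7, 39.6, 22.4, 31.9 and 23.7 RPM. The 7L disomic plants had 4.94, 5.27, 7.19 and 1.81 RPM. The 9L disomic plants had 2.26, 6.75, 5.12, 0 and 3.06 RPM. The 10L19 disomic plants had 4.23, 1.41, 4.88, 2.17 and 2.21 RPM. None of these plants overlapped with the control.

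The log2 fold changes were -2.61 in 7L (SE 0.37, adjusted p = 2.5e-06; 22.9% of the loci were called), -2.81 in 9L (SE 0.45, adjusted p = 8.9e-04; 16.3%) and -3.17 in 10L19 (SE 0.35, adjusted p = 1.7e-08; 14.9%). They held when any 1 sample was left out. Against the other haploid control of the pool 7L and 10L19 remained called, and 9L had a log2 fold change of -1.66 and was not called. In the same pool the 6L disomy (25.7, 10.1 and 9.22 RPM) and the 3S disomy (3.35, 10.5, 13.1, 3.71 and 3.10 RPM) were not called against their control. Of the 6L plants 1 lay above the range of their control and 2 just below it, while 3 of the 5 plants of 3S lay well below it. In diploids 7L and 9L gave no call at 1 or 3 copies, and neither did 10L18, a different translocation with a breakpoint close to that of 10L19. Their log2 fold changes ran from -0.27 to 1.01. With 4 copies of 10L18 in diploids MIR399e was called lower by edgeR (-2.48, adjusted p = 0.0444), with the limits given above.

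**Figure D4:**
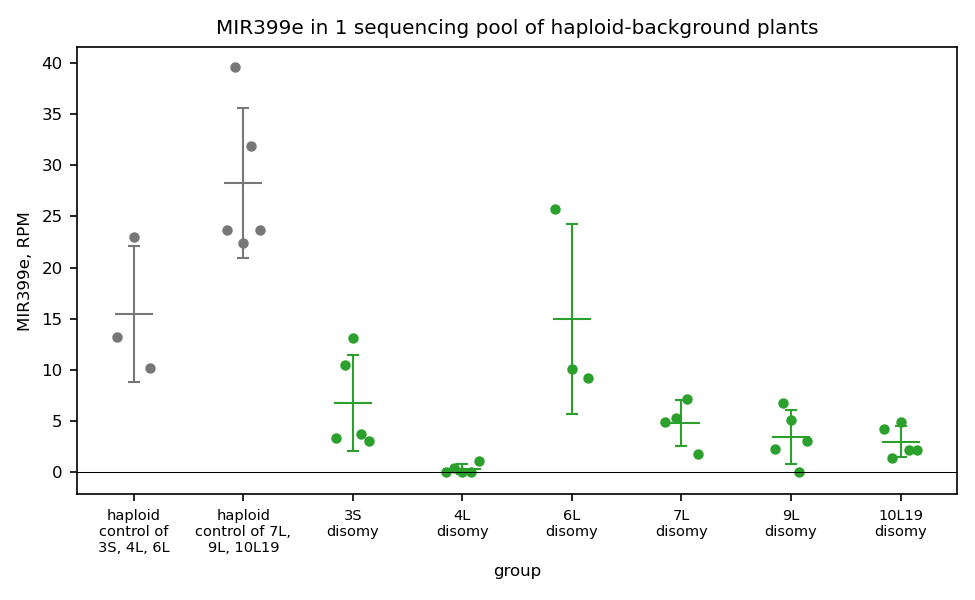
MIR399e in RPM (vertical axis) in the 8 groups of the pool that holds the 4L, 7L, 9L and 10L19 disomies. Points are plants, horizontal bars means and vertical bars the SD. Both haploid controls lie at 10.2 RPM or above in every plant, while the 4L disomy lies at 1.06 RPM or below and the 7L, 9L and 10L19 disomies at 7.19 RPM or below.

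In the 2S disomy, the only aneuploid group in which the dosage of MIR399e itself was varied, its level was below that of the control. Plants with the additional copy had 9.81, 3.22, 3.74 and 5.10 RPM, and the haploid control had 9.89, 13.02, 18.5 and 17.5 RPM. The highest disomic plant lay just under the lowest control plant. The mean was 5.47 ± 3.00 RPM (SD, n = 4) against 14.7 ± 4.00 RPM (n = 4), and the log2 fold change was -1.18 (SE 0.36, adjusted p = 0.0184; 17.8% of the loci were called). It was called by DESeq2 and limma too, but lost without disomic replicate 2 (-1.03) or 3 (-1.01) or control replicate 3 (-1.06) or 4 (-1.07), with adjusted p from 0.0503 to 0.0924. No other control group of this pool was analysed here.

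The 2S_deletion disomy, whose additional segment does not hold the locus, shares that control. Its plants had 4.25, 3.51 and 19.05 RPM, of which 2 lay in the range of the 2S disomy and 1 above the control. The log2 fold change was -0.51 (SE 0.52, adjusted p = 0.573), and it was called with limma on log2(RPM + 1) (-0.97, adjusted p = 0.0261). The direct comparison of 2S with 2S_deletion gave a log2 fold change of -0.71 (SE 0.56, adjusted p = 0.568), with 0% of the loci called, none at an unadjusted p under 0.05 for MIR399e, and no call by DESeq2 or limma. Without replicate 3 of 2S_deletion the value was 0.55, and that of 2S_deletion against its control was -1.80. A difference between the cis and the trans line was not detectable with 4 and 3 plants.

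The 1L disomy had 12.9, 8.57, 13.3 and 6.05 RPM and its haploid control 6.63, 4.71, 9.62 and 26.03 RPM. The groups overlapped and their means, 10.2 and 11.7 RPM, were close. The call (log2 fold change -0.87, SE 0.35, adjusted p = 0.0334) came from a comparison in which 51.1% of the loci were called and in which TMM scaling and scaling by mapped reads differed by 0.64 in the median of all loci. With mapped reads the value was -0.22 (adjusted p = 0.585), and with limma on RPM it was 0.03. It was also lost without disomic replicate 1, 2 or 4 (-1.03, -0.75 and -0.69) or control replicate 3 or 4 (-0.999 and -0.10).

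Across all 51 aneuploid comparisons the median of the loci moved by -0.62 to 0.64 on the log2 scale between these scalings, and by more than 0.1 in 29 of them. Changes of MIR399e of that size or less depend on which scaling is used.

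Changes of whole ploidy gave no call for MIR399e. Haploids had 20.7, 23.99, 21.7 and 13.2 RPM and their diploids 53.3, 26.7, 41.8 and 32.9 RPM, which did not overlap, with a log2 fold change of -0.83 (SE 0.35, adjusted p = 0.706). Triploids had the highest level of all groups, 83.4 and 75.96 RPM, and so did their own diploids among the controls (93.6, 37.9 and 50.7 RPM), and the log2 fold change was 0.14 (SE 0.30, adjusted p = 0.995).

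Tetraploids had 3.73, 14.2, 53.8 and 33.04 RPM and their diploids 15.9, 13.5, 17.01 and 14.9 RPM. The diploids were narrow and the tetraploids ran to both sides of them, with a log2 fold change of 1.01 (SE 0.61, adjusted p = 0.493). The effect in tetraploids differed from that in triploids by 0.89 (SE 0.85). Over the 4 comparisons 0% of the tests were called at any locus by edgeR, MIR399e had 1 unadjusted p under 0.05, in the haploids, and it was not called by DESeq2 or limma either.

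With 1 B chromosome, MIR399e had 17.9, 31.3 and 18.9 RPM (the last from a joined pair), and without one 22.9, 28.2, 11.1 and 24.9 RPM. The groups overlapped, and the log2 fold change was -0.28 (SE 0.43, adjusted p = 0.898), or 0.03 with mapped reads as library size. Of the loci, 2.33% were called. MIR399e was not called by DESeq2 or limma, and its unadjusted p was above 0.05. The 95% interval of the log2 fold change was -1.12 to 0.56.

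MIR399b was nearly without reads. In all 322 libraries it received 33 reads, in 21 libraries of 14 groups, and 3 of the 64 loci had fewer. Of these libraries 15 had 1 read, 4 had 2 reads and 2 had 3 or more. In the 301 libraries without a read, 3 reads would correspond to 0.809 to 8.85 RPM (median 1.77), so that lower levels could have been missed in them. Single reads were seen in 15 libraries at 0.257 to 0.971 RPM. This limit covers counting error only, as reads without molecular identifiers are not independent molecules.

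The reads of MIR399b were concentrated in Experiment 7, the triploids and their diploids. Diploid replicate 1 had 7 reads (2.66 RPM), the most of any library, diploid replicate 3 had 3 reads, and the triploids had 2 and 1. Together these 5 libraries held 13 of the 33 reads. MIR399b made up 1.56% of the reads of both loci there (exact 95% interval 0.836 to 2.66%), and 0.225% in the other 317 libraries (20 reads, 0.138 to 0.348%). Both groups of Experiment 7 also had the highest means of MIR399e, and as the triploids came from Mo17, inbred line and experiment cannot be told apart.

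Libraries with a read of MIR399b had a median of 22.6 RPM of MIR399e, and those without had 11.2 RPM. The libraries with a read were also deeper, with a median of 2.25e+06 mapped reads beside 1.70e+06 without. Outside Experiment 7 the 1S disomy held most reads, 6 in 4 of its plants. In Dp4, where MIR399b is a cis locus, there were 0, 1 and 0 reads in diploid, trisomic and tetrasomic plants, which says nothing of its response to dosage. The locus passed the limit of 0.5 RPM in 1 of the 83 comparisons, triploids against diploids, where its log2 fold change was -1.27 (SE 1.04, adjusted p = 0.995).

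**Figure D5:**
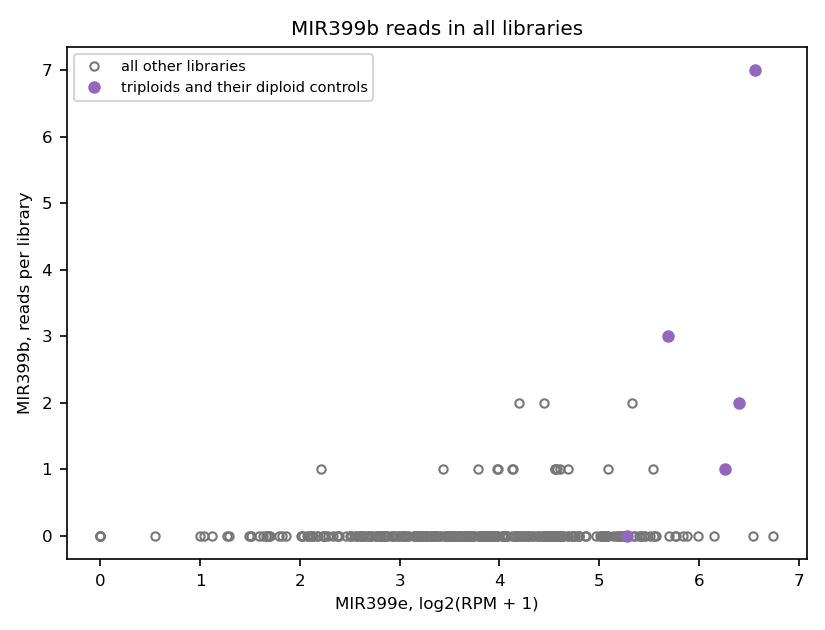
Reads of MIR399b in each of the 322 libraries (vertical axis) against the level of MIR399e as log2(RPM + 1) (horizontal axis); filled points are the triploids and their diploid controls, open points all other libraries. The libraries with 7 and 3 reads are both diploids of the triploid series, and no other library has more than 2.

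No other locus had a pattern close to that of MIR399e. Over the 81 group means of log2(RPM + 1), the highest Spearman correlations among 47 loci were 0.28 with MIR396f, 0.23 with MIR390b and 0.17 with MIR394b, around a median of -0.04. Within groups, over 312 samples, these were 0.29, 0.40 and 0.10, around a median of 0.07. The groups share controls, experiments and depth, and values of this size in sparse counts are no finding.

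The other loci listed as responding to nutrients, by knowledge from Arabidopsis, are given beside it. MIR393b, of a family that responds to nitrate and targets auxin receptors, was called in 5 of 51 aneuploid comparisons, 5 times higher, and in 1 of 22 control pairs, beside 11.5% and 7.23% of all tests of loci. MIR169o, of a family that targets NF-YA factors and responds to nitrogen, had a mean of 0.879 RPM and passed the limit of 0.5 RPM in 8 aneuploid comparisons and 4 control pairs, with 3 and 0 calls. As a locus this low passes the limit mainly through a group in which it is high, nothing is read from the direction of its calls. Whether these loci differ from MIR399e was not tested.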

How the data were processed

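Per the study's methods, the authors trimmed reads with cutadapt 1.16, removed low-quality reads and reads of structural RNAs (Bowtie2), and placed reads of small RNA length on the W22v2 and organelle genomes with ShortStack. They deposited raw read counts per locus. The authors also deposited RPM, counts scaled to mapped reads, and 1 read was worth the same RPM for every locus of a library, which gives its mapped reads (339141 to 3892830). Groups came from the sample labels. Left out were 3 libraries excluded by the study and a Dp4 plant with 2 stated dosages. In 6 pairs of plants counts differed by no more than sampling noise (chi-square test, p above 0.05), and each pair was counted as 1 sample.

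Each group was tested against its own control by the quasi-likelihood test of edgeR 4.0.16 (R 4.3.3), on counts with TMM factors and library sizes summed over the 64 loci. Loci entered from a mean of 0.5 RPM, with Benjamini-Hochberg adjustment over the loci of a comparison and a call at an adjusted p under 0.05. Tetraploids were compared with triploids as a difference of effects. Levels are mean RPM ± SD. The test was checked on simulated counts with the same spread between plants at every locus. The larger spread of MIR399e was not simulated, so the check does not cover it. Alternatives were other scalings, filters and pseudocounts, DESeq2 1.42.0, limma 3.58.1, a fit over all groups that share a control, each plant as a replicate, and leaving out each sample. Other control groups, trisomy against monosomy and differences between lines were added after values had been seen. Counts per library, 7139 to 246556 on the loci, limit MIR399e to a median of 19 reads, and intervals on pooled reads and shares cover counting error only, while those of fold changes come from the spread between samples.

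Both members are named throughout, with the 3 loci most like MIR399e and the nutrient-responsive loci MIR169o and MIR393b, a rule and lists chosen with earlier results of these data known. Sequences came from the study's tables of loci and predicted targets, the latter read in part.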

Additional observations from a re-analysis of the deposited data

Results flagged for a closer look

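Single plants stood apart in MIR399e in 6 of 64 groups of at least 4 samples. For normally distributed values chance marks about 1 group in 20. Whether these RPM are so distributed was not tested, so that rate may not hold for them. The plants above their groups were 4Sa_2D replicate 4 (106.4 RPM), 5Lb_3D replicate 4 (42.73 RPM), 4Lb_3D replicate 4 (24.87 RPM) and 5Sc_4D replicate 4 (21.6 RPM). Those below their groups were 9Lc_1D replicate 3 (17.38 RPM) and 1Sb_3D replicate 4 (7.451 RPM). The rule used RPM and took no account of counting error. The 1Sb_3D plants held 13, 11, 11 and 12 reads in order of replicate, so replicate 4 did not stand apart in reads. The replicate number is only a name. The 4Sa_2D plant held 295 reads of MIR399e, and with it in the control the 4S monosomy and trisomy had log2 fold changes of -1.91 and -2.20 that were not called.

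Only lines already called in opposite directions were set against each other by a test of the difference in edgeR. These differences therefore give no support beyond the calls themselves. The log2 fold change in the 6L monosomy exceeded that in the 3L monosomy by 3.11 and that in the 9S monosomy by 3.209, and the 9S trisomy exceeded the 1S trisomy by 3.126. The 9S trisomy exceeded the 5S trisomy by 2.23, which missed the threshold (adjusted p = 0.0588). The signs in the 6L monosomy, the 1S trisomy and the 9S trisomy depended on the control, as given below.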

How the results depend on the processing

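With edgeR, TMM and the limit of 0.5 RPM replaced one at a time, the 9S monosomy, the 6L monosomy, the 1S trisomy, the 10L18 tetrasomy against diploids and the 2S, 4L, 7L, 9L and 10L19 disomies kept their calls under every setting other than a left-out sample or another control. Counts of calls moved as follows. Without a limit on mean RPM 6 monosomies and 11 control pairs were called. With DESeq2 the numbers were 1 trisomy, 1 tetrasomy against diploids and 4 control pairs. A fit over all groups that share a control called 1 trisomy and 1 tetrasomy against trisomies, and the latter also stood at 1 with mapped reads, with no limit and with a limit of 1 RPM. The 1B effect changed sign with mapped reads (0.03334) and limma (0.0901 and, with a pseudocount of 0.5, 0.09365). The 2S_deletion disomy was called only with limma (-0.9726 and -1.04). The 3L monosomy was lost with mapped reads (-1.612) and limma (-1.19 and -1.267). The 5S trisomy was lost with mapped reads (-1.228), RLE factors (-1.362), DESeq2 (-1.376), limma (-1.209 and -1.253), no limit (-1.381), a limit of 1 RPM (-1.165) and the joint fit (-1.535). The 9S trisomy was lost with DESeq2 (1.037) and the joint fit (1.203), and the 5S tetrasomy with DESeq2 (-1.413). The 1L disomy was lost with mapped reads (-0.2166), DESeq2 (-0.8917), a limit of 1 RPM (-0.8575) and the joint fit (-0.8561), and was positive with limma (0.02659 and 0.03634). The cause of these changes was not tested.

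Against other controls of the same experiment or pool, an alternative chosen after seeing the data, 12 of 23 fits of called comparisons remained called, none in the opposite direction, and of 63 fits of comparisons not called against their own control some were called, 16 in the direction of the own control and 9 in the other. Signs reversed in the 6L monosomy (-0.4952), the 1S trisomy (0.03516) and the 9S trisomy (-0.6734 and -0.4156). Calls were lost in the 3L monosomy (-0.945), the 5S trisomy (-0.4488), the 9S trisomy (0.8138), the 5S tetrasomy (-0.5386), the 10L18 tetrasomy (-1.547 and -0.5745) and the 9L disomy (-1.664).

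Leaving out 1 sample gave 1 to 2 tetrasomies against diploids and 0 to 1 against trisomies. The log2 fold changes then ran from -2.82 to -1.636 in the 10L18 tetrasomy, -1.098 to -0.09946 in the 1L disomy, -1.495 to -1.009 in the 2S disomy, -1.154 to 0.5545 between both 2S lines, -2.008 to -1.096 in the 3L monosomy, -2.225 to -1.262 in the 5S tetrasomy, -2.093 to -0.8211 in the 5S trisomy and 0.7394 to 1.466 in the 9S trisomy. No paired analysis was possible because the labels give no number that pairs plants across groups. With a median of 19 reads per library, small changes of MIR399e could not be resolved, and those of MIR399b could not be tested.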
